A study of Mus musculus with 2 samples.

Results

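The microRNAs described here come from imprinted loci other than the Dlk1-Dio3 region: Mir296 and Mir298 near Gnas and Nespas, Mir335 in Mest, Mir483 in Igf2 and Mir675 in H19. They were taken by gene symbol from a list made with earlier results of these data known. All 5 were found among the 2202 microRNA genes of the count tables. Small RNA was sequenced from left cerebral cortex of male B6CASTF1/J mice at 14 days of age, as 2 libraries. B6CASTF1/J is a first-generation cross of the C57BL/6 and CAST/Ei strains, and no treatment or mutation is named. Both libraries belong to 1 group, carry the same donor record and have separate tissue records. Whether they came from separate animals is not clear from the labels, nor is whether tissue was pooled. An SD here may therefore reflect technical spread alone. The libraries held 4111167 and 3189903 counts in microRNA genes, out of 11224232 and 8758378 reads.

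An imprinted gene is transcribed mainly from the chromosome inherited from 1 of the parents, and a differentially methylated control region sets which. Mest, Igf2 and the antisense transcript Nespas are known as paternally expressed and H19 as maternally expressed, while Gnas encodes the stimulatory G protein alpha subunit and gives several transcripts with different imprinting. MicroRNAs from such loci are cut from hairpins within the longer transcripts, and each mature form recognises target RNAs mainly through its seed, bases 2 to 8. The counts do not separate the parental alleles, so parent-of-origin expression was not measured. Reads could tell the alleles apart only where they cover a variant between the parental strains. Whether the mature forms hold such variants was not checked. The RNA of the host genes was not measured either.

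The mature forms are given because a gene's count sums both arms of its hairpin. RefSeq (build GRCm38.p6) held the hairpin and 2 mature forms for 5 of the 5 genes, and each is printed 5′ to 3′ with the seed in capitals.
miR-298-5p: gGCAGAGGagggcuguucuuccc
miR-298-3p: gAGGAACUagccuucucucagcuu
miR-296-5p: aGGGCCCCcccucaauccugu
miR-296-3p: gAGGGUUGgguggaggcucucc
miR-335-5p: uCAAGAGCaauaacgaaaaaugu
miR-335-3p: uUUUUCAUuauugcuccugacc
miR-483-5p: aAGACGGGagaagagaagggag
miR-483-3p: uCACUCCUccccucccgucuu
miR-675-5p: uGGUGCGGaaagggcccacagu
miR-675-3p: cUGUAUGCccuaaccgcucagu

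The 10 mature forms had 10 different seeds, so the 5 genes form no seed family among themselves. None of the 10 seeds was found in a mature form of any other gene in the RefSeq table. A seed of their own was likewise found for 72.1% of the 1679 mature forms listed there, so this is common. GC content ranged from 30.4% in miR-335-5p to 68.2% in miR-296-3p. G made up 50% of the bases of both miR-296-3p and miR-483-5p but 4.76% of those of miR-483-3p.

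The positions divided the genes into 3 kinds of setting (mm10, GENCODE M21). Mir335 lay at chromosome 6, 30741299 to 30741396, plus strand, 17752 bases from the 5′ end of Mest and in an intron of 7 of its 11 annotated transcripts. Mir483 lay at chromosome 7, 142654924 to 142654996, minus strand, in an intron of 7 of the 9 transcripts of Igf2 and also of the overlapping gene Gm49394. Mir675 lay at chromosome 7, 142577064 to 142577147, minus strand, within an exon of 3 of the 7 transcripts of the non-coding gene H19 and in an intron of another. Between Mir675 and Mir483 lay 77776 bases. Mir298 (chromosome 2, 174267504 to 174267585) and Mir296 (174267047 to 174267125) lay on the minus strand and within no annotated gene. They shared the strand of Nespas and lay 13.7 and 14.1 kb beyond its annotated 3′ end. A gap of 378 bases separated the pair.

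**Figure D1:**
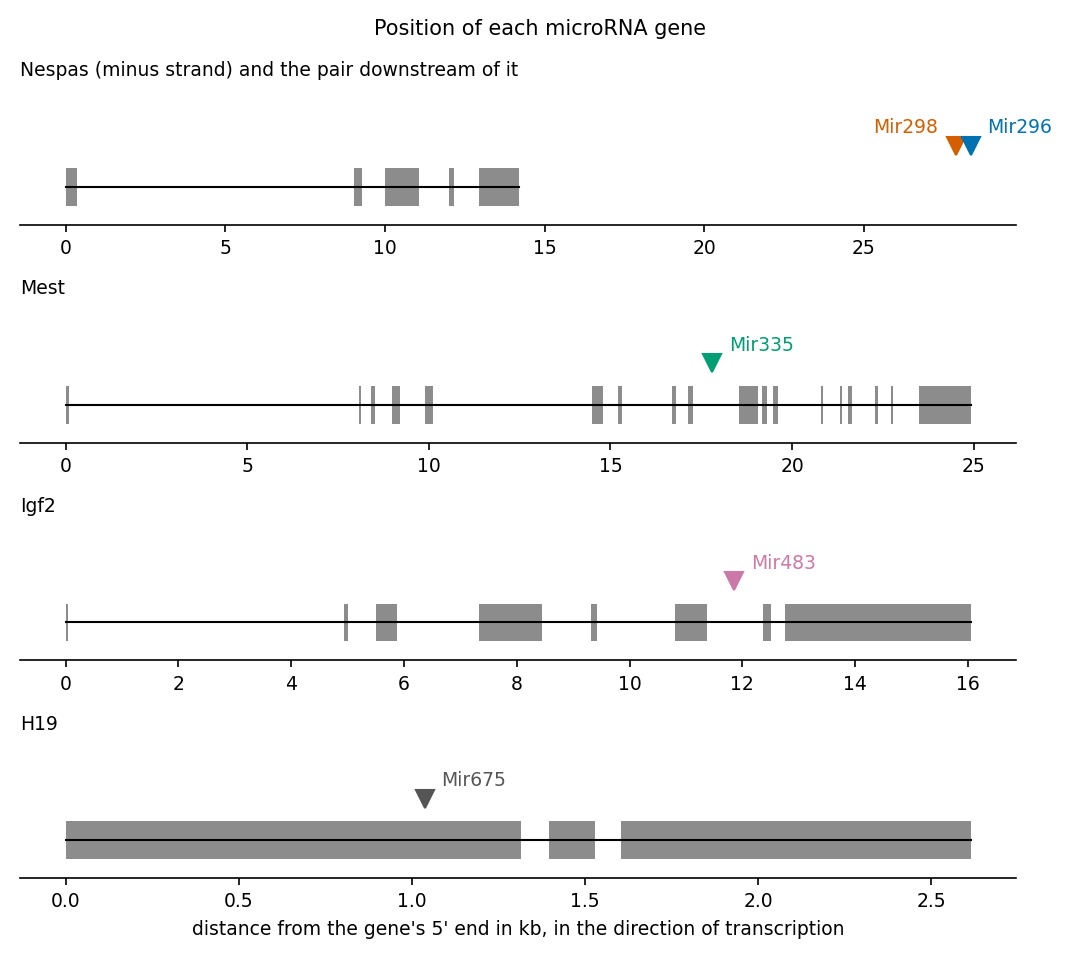
Each row shows a gene, with every annotated exon of all its transcripts as grey boxes and the microRNA genes as triangles; the horizontal axis is distance in kb from the 5′ end in the direction of transcription. Mir335 and Mir483 lie between exons, Mir675 lies within an exon of H19, and Mir298 and Mir296 lie 13.7 and 14.1 kb past the end of Nespas.

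Mir298 was the most abundant of the genes, followed by Mir335, Mir296 and Mir483, and no read was counted for Mir675. This order was the same in both libraries. Of the 5 genes 4 were detected, meaning at least 10 counts in each library, where 18.4% of all microRNA genes were. At least 1000 CPM (counts scaled to a common library total of 1e+06) was reached on average by 3 of the 5, against 4.77% of all microRNA genes. In the Dlk1-Dio3 region 25 of 66 genes reached it. Of all microRNA genes 64.5% had 0 counts in both libraries. The 5 genes were chosen with earlier results of these data known, so these shares describe the choice only. Together the genes held 1.69% of the counts in replicate 1 (exact 95% Clopper-Pearson interval 1.67 to 1.70%) and 3.06% in replicate 2 (3.04 to 3.08%), or 2.37% ± 0.971 (SD, n = 2). Mir298 supplied 50.5% of that sum in replicate 1 and 79.0% in replicate 2. The other genes of the set together held 0.834% and 0.642%, so the rise of the sum lay in Mir298. These intervals cover counting error only and take each read as an independent molecule, which sequencing without molecular identifiers does not ensure.

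**Figure D2:**
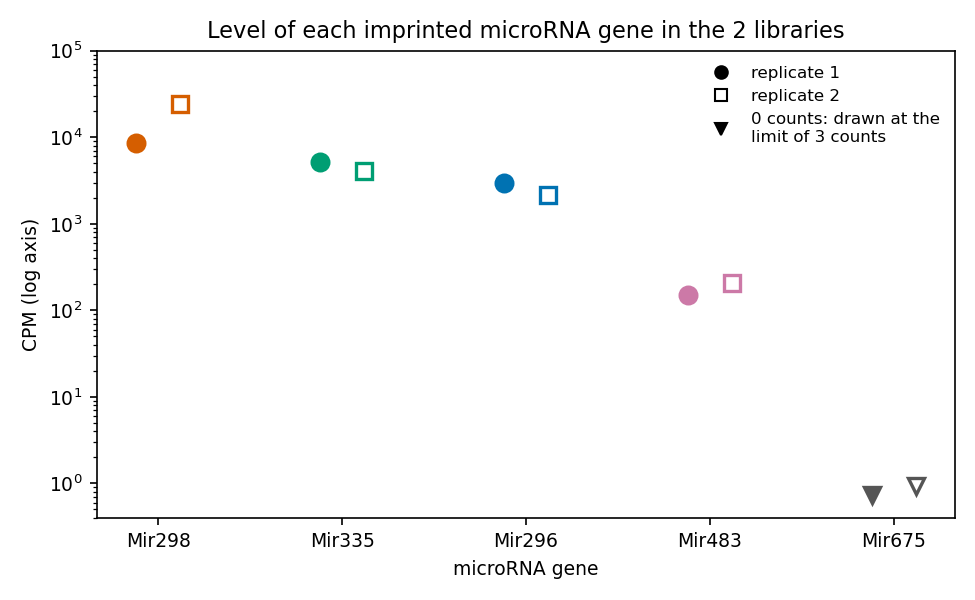
CPM on a log axis for each gene in replicate 1 (filled circles) and replicate 2 (open squares); triangles mark 0 counts, drawn at the limit that 3 counts would give. Mir298 is highest in both libraries and spreads most, from 8509 to 24157 CPM, while Mir675 lies at 0.

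Mir298, from the Gnas and Nespas locus, gives a microRNA that has been reported to bind the transcript of Bace1, the protease that begins cleavage of the amyloid precursor protein. Mir298 (ENSMUSG00000065410.1) had 34982 counts in replicate 1 and 77058 in replicate 2, or 8509 CPM (95% Poisson interval 8420 to 8599) and 24157 CPM (23987 to 24328). It was the gene of rank 27 in replicate 1 and rank 9 in replicate 2. The mean was 16333 ± 11065 CPM (SD, n = 2), the rank by mean 15, and the level in replicate 2 was 2.84 times that in replicate 1.

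Mir296 gives a microRNA reported to act in endothelial cells during vessel growth. Mir296 (ENSMUSG00000065521.1) had 12188 and 6805 counts, or 2965 CPM (2912 to 3018) in replicate 1 and 2133 CPM (2083 to 2185) in replicate 2. The mean was 2549 ± 588 CPM (SD, n = 2). Replicate 1 was therefore the higher library for Mir296 and the lower for its neighbour Mir298.

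Mir335, in Mest, gives a microRNA best known as a suppressor of metastasis in breast cancer cells. Mir335 (ENSMUSG00000065501.1) had 21496 and 13018 counts, or 5229 CPM (5159 to 5299) in replicate 1 and 4081 CPM (4011 to 4152) in replicate 2, with a mean of 4655 ± 812 CPM (SD, n = 2). Its rank by mean was 39. No microRNA gene lay within 50 kb of it. The nearest, Mir29a at 321 kb on the other strand, stood at 2162 and 1977 CPM.

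Mir483, within the gene of the fetal growth factor Igf2, gives a microRNA known for high levels in Wilms tumours. Mir483 (ENSMUSG00000070140.1) had 613 and 665 counts, or 149 CPM (138 to 161) in replicate 1 and 208 CPM (193 to 225) in replicate 2. The mean was 179 ± 42.0 CPM (SD, n = 2), close to the median of 129 CPM over the 406 detected genes. Igf2 is known to be expressed in the choroid plexus and the meninges, and markers of choroid plexus and ciliated cells were counted too. Of 6 such markers 4 were detected. By an exact binomial test of the split of counts between the libraries, 3 of these (Mir204, Mir34c and Mir449a) were higher in replicate 2. Mir34b did not pass it. Over all detected genes 58.1% passed this test, 23.4% higher and 34.7% lower, so passing it is common. Mir211 had 6 and 1 counts and Mir449b had 0. The levels of the 6 summed to 945 CPM in replicate 1 and to 1315 CPM in replicate 2. The vascular markers summed to 15523 and 18393 CPM, of which Mir126a made most of the difference (10449 and 13176 CPM). Mir143 was at 4840 and 5016 CPM and Mir145a at 234 and 201 CPM. The 2 oligodendrocyte markers were both lower in replicate 2 by the same test and summed to 2855 and 2521 CPM. Of the 4 microglia and leukocyte markers 1 was higher and 1 lower by it, and they summed to 1839 and 1974 CPM. The part of any of these cell types in the Mir483 counts was not tested. In bulk tissue fewer cells of a type and less RNA per cell cannot be told apart.

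Mir675, cut from H19, gives a microRNA known to limit growth of the placenta, and H19 itself is known to be silenced in most tissues after birth. Mir675 (ENSMUSG00000076275.1) was at 0 counts in each library. The limit of 3 counts, the most that a count of 0 allows one-sided at 95%, is 0.730 CPM for replicate 1 and 0.940 CPM for replicate 2. The two-sided Poisson intervals used for the other genes end at 0.897 and 1.16 CPM. The same held for 1421 of the 2202 microRNA genes (64.5%), so a count of 0 is the usual value in this profile. The counts of Mir483 were 204 times this limit of 3 counts in replicate 1 and 222 times in replicate 2. These ratios leave out the counting error of Mir483 itself. Both mature forms of Mir675 were also found within H19 transcripts, which overlap it, and in no other annotated transcript.

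Neighbours in the order of levels were compared over the 2 libraries. Mir335 exceeded Mir296 in both, and the difference of their means, 2106 CPM, was larger than the sum of their SDs, 1399 CPM. The difference between Mir296 and Mir483, 2370 CPM, was also larger than the sum of their SDs, 630 CPM. Mir298 exceeded Mir335 in both libraries without overlap, but the difference of their means, 11678 CPM, was within the sum of their SDs, 11876 CPM. With 2 libraries an exact sign-flip test cannot go below a two-sided p of 0.5, so no test over samples is given. Counts of different microRNAs also reflect how well each sequence is captured during library preparation, and the order is that of counts. Divided by hairpin length, the mean was 199 CPM per base for Mir298, 47.5 for Mir335, 32.3 for Mir296 and 2.45 for Mir483. Hairpin lengths, 73 to 98 bases, differ less in proportion than the levels do, so this division could not change the order.

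**Figure D3:**
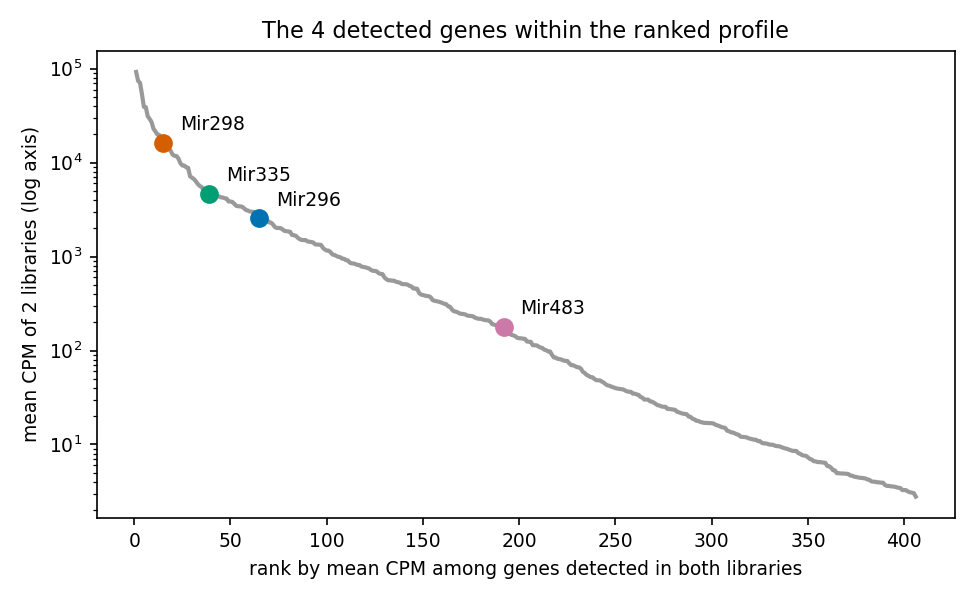
Mean CPM of the 2 libraries (log axis) against rank for the 406 genes detected in both, with the 4 detected genes of the set marked. Mir298 (rank 15), Mir335 (rank 39) and Mir296 (rank 65) lie in the upper part of the profile and Mir483 (rank 192) near its middle.

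The libraries differed for each detected gene of the set by more than read sampling gives, and for Mir298 the difference was among the larger ones of the profile. By a two-sided exact binomial test with Benjamini-Hochberg adjustment over the 406 detected genes, 4 of the 4 detected genes differed, Mir298 and Mir483 higher and Mir296 and Mir335 lower in replicate 2. Of all detected genes 58.1% differed by this test, 23.4% higher and 34.7% lower, so passing it is common. It is more common at higher counts: with a minimum of 50 counts in each library, 217 of 291 genes differed. With TMM library sizes the split over all genes moved from 95 higher and 141 lower to 111 and 110, and the 4 genes kept their directions. The test compares 2 libraries, not conditions.

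On the log2 scale the ratio of replicate 2 to replicate 1 was 1.51 for Mir298, 0.48 for Mir483 (adjusted p = 7.37e-09, exact binomial test), -0.36 for Mir335 and -0.47 for Mir296. The median size over all detected genes was 0.30. By size of the ratio Mir298 ranked 15 of 406, while Mir483, Mir296 and Mir335 ranked 134, 143 and 179. Over 2-fold apart were 9.85% of the detected genes, Mir298 among them. Within the 100 genes of highest mean CPM, whose median size was 0.21, Mir298 ranked 6. Within the highest 25, whose median size was 0.15, it ranked 1. Mir298 was of rank 27 by level in replicate 1 and rank 9 in replicate 2. Its place among the 25 thus rests on the library where it was high, and that rank is a description only. Of 11 markers of neurons 8 were detected, 4 of them higher and 4 lower in replicate 2, with Mir124a-1, Mir124a-2 and Mir124a-3 below the minimum in at least 1 library, and they summed to 149523 CPM in replicate 1 against 138612 CPM in replicate 2. Without Mir139, the leading marker, they summed to 47963 and 55524 CPM. The mature form of the Mir124a genes has several genomic copies, so their reads can be lost to the counting. Markers from outside the brain had 5 of 8 detected, 4 higher and 1 lower in replicate 2, and summed to 169 and 249 CPM. By the exact binomial test 2 of them were higher. Mir1a-1 and Mir133a-1 were at 0, as was Mir133a-2, a further gene of that name. Reads of a mature form with several copies can be lost here too, so these counts of 0 do not show absence. The part of any of these markers in the ratio of Mir298 was not tested.

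**Figure D4:**
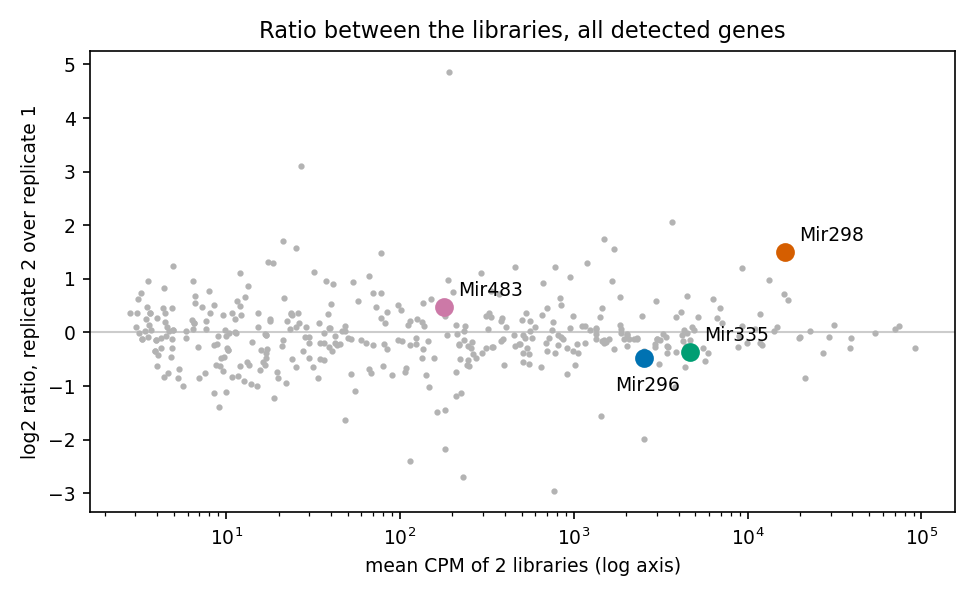
Log2 ratio of CPM in replicate 2 over replicate 1 against mean CPM (log axis) for the 406 detected genes (grey) and the 4 detected genes of the set (coloured). Mir298 lies at 1.51, rank 15 of 406 by size, and Mir483, Mir335 and Mir296 lie within the main cloud.

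Mir298 and Mir296 showed the most unequal behaviour of the set, although they are neighbours on the same strand. Their hairpins are shown because the contrast turns on this pair; the mature forms are in capitals.
Mir298: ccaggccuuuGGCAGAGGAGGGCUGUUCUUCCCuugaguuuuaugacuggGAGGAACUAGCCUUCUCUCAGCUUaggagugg
Mir296: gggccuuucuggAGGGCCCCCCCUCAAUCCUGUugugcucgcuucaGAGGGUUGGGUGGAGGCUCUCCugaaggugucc

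Within a library the ratio of their counts does not depend on the library total. Mir298 had 2.87 times the counts of Mir296 in replicate 1 (exact 95% interval 2.81 to 2.93) and 11.3 times in replicate 2 (11.0 to 11.6). The ratio of Mir335 to Mir296, which lie on different chromosomes, was 1.76 (1.72 to 1.80) and 1.91 (1.86 to 1.97). The Mir298 ratio thus moved between the libraries by 1.98 on the log2 scale, and the ratio of Mir335 to Mir296 by 0.12. Against Mir335, on another chromosome, Mir298 moved by 1.86, from 1.63 to 5.92 times its counts, nearly as much as against its neighbour. The ratios of Mir296 and of Mir335 to Mir483 moved by -0.96 and -0.84.

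Close neighbours elsewhere in the profile gave a scale for this difference. Between adjacent detected genes on the same strand and at most 1 kb apart there were 64 pairs, 25 of them in Dlk1-Dio3. The median difference of their log2 ratios was 0.42, and Mir296 with Mir298 ranked 2 of 64. The pair ranked 1 was Mir3093 with Mir9-1 (2.08) and the third was Mir16-1 with Mir15a (1.88); Mir9-1 and Mir16-1 give mature sequences that have further genomic copies. Next came Mir487b with Mir539 (1.59) and Mir380 with Mir323 (1.48), both in Dlk1-Dio3, and 12 of the 64 pairs differed by more than 1. Ratios of opposite sign were found in 34 of the 64 pairs. Among the 15 pairs in which both genes had a mean of at least 1000 CPM, Mir296 with Mir298 ranked 1. These pairs share genes and libraries, and the ranks are a description.

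**Figure D5:**
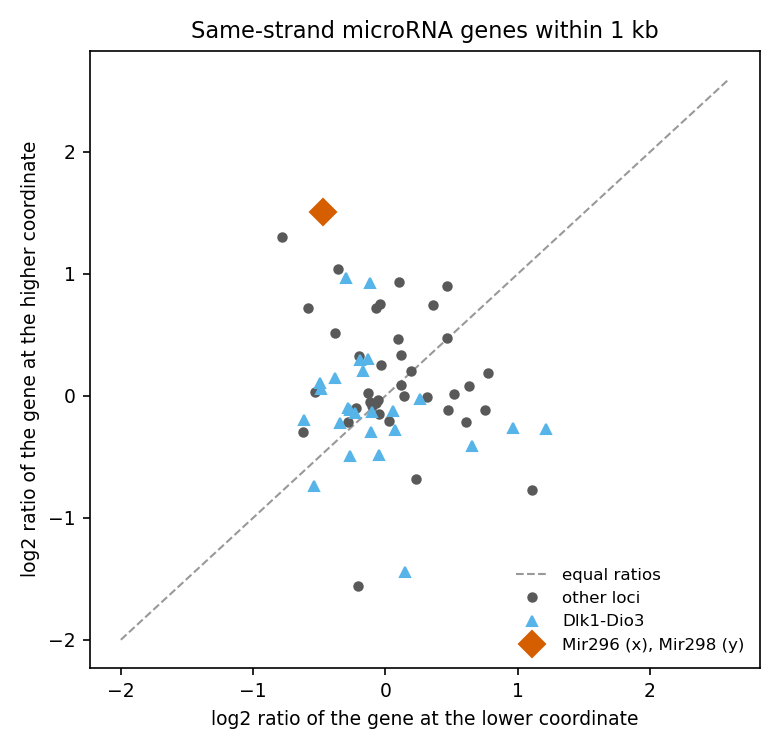
For 64 pairs of adjacent detected microRNA genes within 1 kb on the same strand, the log2 ratio (replicate 2 over replicate 1) of the gene at the lower coordinate is plotted against that of its neighbour. Mir296 with Mir298 (diamond, -0.47 and 1.51) lies farther from the line of equal ratios than every other pair except Mir3093 with Mir9-1.

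Sequence copies were searched because they bear on the counting. Reads with more than 1 matching position in the genome were assigned to no gene, so a gene with copies elsewhere can be counted too low. None of the 5 hairpins shared an 18-base stretch with another hairpin in the RefSeq table, where 13.9% of 1005 hairpins did. In 141767 GENCODE M21 transcripts, no mature form of Mir296, Mir298, Mir335 or Mir483 was found outside its own gene on either strand, also with 1 mismatch allowed or with its first 18 bases alone. Copies outside annotated transcripts were not searched. With strand ignored the counts were the same, apart from 1 further count for Mir335 in replicate 1, which was the single read counted on the opposite strand of any of the genes.

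All 5 hairpins were predicted to be more stable per base than the median hairpin. The predicted minimum free energy per base ran from -0.45 kcal/mol for Mir335 to -0.67 kcal/mol for Mir675, against a median of -0.41 over 968 hairpins of measured genes. Mir675, at 0 counts, was thus more stable by this prediction than 97.9% of the hairpins. Mir298 was so against 87.6% and Mir296 against 91.8%. GC content was 63.3% in Mir296 and 53.7% in Mir298, both above the median of 51.7%. In the predicted folds the mature arms formed 20 base pairs with each other in Mir298, 18 in Mir296 and in Mir335, and 16 in Mir483 and in Mir675. The hairpin of Mir335 was the longest, at 98 bases, and that of Mir483 the shortest, at 73.

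The genes nearest in level, by distance in log2(CPM + 1) over the 2 libraries, came from other loci. They were Mir434 (distance 0.05), Mir370 (0.09) and Mir322 (0.30) for Mir296, and Mir361 (0.13), Mir26b (0.16) and Mir328 (0.22) for Mir335. Those of Mir483 were Mir410 (0.13), Mir18 (0.29) and Mir340 (0.35). Of these genes Mir434, Mir370 and Mir410 lie in the imprinted Dlk1-Dio3 region. Mir298 had no gene as close: Mir22 (0.46) went from 8889 to 17616 CPM, Mir132 (0.59) from 12230 to 20125 CPM and Mir99a (0.71) from 13566 to 20648 CPM. Likeness over 2 libraries of 1 group is a description of level only.

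Other imprinted microRNA loci place the set in context. The Dlk1-Dio3 region held 66 annotated microRNA genes, of which 51 were detected, 14 higher and 28 lower in replicate 2. The shares over all microRNA genes were 18.4% detected and, of those, 23.4% higher and 34.7% lower. With TMM library sizes 15 of the Dlk1-Dio3 genes were higher and 21 lower. The region's share of the counts was 10.2 ± 4.43 times that of the 5 genes (SD, n = 2), a ratio that moves with Mir298. The median log2(CPM + 1) was 11.30 over the 5 genes, 8.54 over the Dlk1-Dio3 genes and 0 over all microRNA genes. The last 2 lists hold every annotated gene, many of them at 0. Over detected genes alone the medians were 11.74, 9.83 and 6.97. The repeat-rich cluster in Sfmbt2 had 8 of 119 genes detected, 3 of them lower in replicate 2, and was led by Mir467d at 784 ± 146 CPM (SD, n = 2). Many of its reads can match several positions.

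Mir184 and the Mir344 genes, from loci reported as imprinted or lying in the Prader-Willi region, were less abundant. Of 14 such genes 4 were detected, 1 of them lower in replicate 2, with Mir184 at 77.3 ± 9.92 CPM (SD, n = 2), Mir344b at 22.0 ± 9.83 CPM and Mir344g at 15.3 ± 2.73 CPM. A search of 64 genes of imprinted regions for further microRNA genes on the same strand gave 4, in 3 of the host genes. Of these Mir3099, in the paternally expressed gene Usp29, was at 1362 and 1336 CPM, between Mir296 and Mir483. Gm23134 in Blcap had 2 and 4 counts, and Mir489 and Mir653 in the calcitonin receptor gene Calcr had 0 in both libraries. Near Mir296 and Mir298, the only further microRNA gene within 50 kb, Gm27591 on the plus strand, had 0 counts in both libraries.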

How the data were processed

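The authors deposited raw counts of reads for each microRNA gene, without normalization, in 3 columns: strand ignored, strand of the gene and opposite strand. The descriptions deposited beside them name mm10 and GENCODE M21; which aligner and counter were used is not given in the sources used here. All 2202 IDs matched GENCODE M21. The strand-of-gene counts were scaled to the total over genes (CPM). The 4 leading rows that name no gene were left out; in replicates 1 and 2, reads at several positions made up 39.1% and 41.4%, unmapped reads 19.1% and 17.5%, and reads outside genes 5.13% and 4.66%.

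Detection needed 10 counts in each library, and the exact binomial test (SciPy 1.17.1, threshold 0.05) ran over detected genes. With 1 library on each side edgeR's quasi-likelihood test cannot be run. TMM factors came from edgeR 4.0.16 and size factors from DESeq2 1.42.0, over detected genes. Folding used RNAfold 2.7.2. The exact binomial test and the Poisson intervals were tested on simulated Poisson counts. Such counts vary by read sampling only, so this does not show how the test behaves where libraries differ by more. The genes and lists were chosen with earlier results of these data known. Named are the 5 genes, microRNA genes within 50 kb, the 3 nearest in level, the leading 3 of each list and marker genes; pairs of close genes were named after their values were seen. Alternatives were strand, count minimum, scaling, pseudocount, a stricter threshold, removal of the leading gene or member, and of each replicate in turn.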

Additional observations from a re-analysis of the deposited data

Results flagged for a closer look

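Reads that matched several genomic positions lay outside the counts used. Their share was 39.1% in replicate 1 and 41.4% in replicate 2. Whether any came from Mir296, Mir298, Mir335, Mir483 or Mir675 was not tested.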

How the results depend on the processing

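Of 54 values under alternatives that kept both libraries, 52 stayed on the same side of the threshold or within the tolerance (1 SD for levels and shares, 1.5 times for counts and ranks). Some of these could hardly move. The pseudocount settings kept the main adjusted p, and Mir675 was at 0 under every scaling. The counts of Mir298 and Mir296 were the same with strand ignored. For Mir298 the tolerance was wide, 11065 CPM on a mean of 16333 CPM. The 52 are therefore not a measure of stability. The summed share fell from 2.37% to 0.750% without the most abundant member, Mir298, which follows from the gene removed. The rank of Mir296 with Mir298 among close pairs, an alternative added after the data were seen, was 1 where both genes had a mean of at least 1000 CPM and 3 at distances up to 10 kb, against 2. TMM library sizes moved every log2 ratio by 0.08; ratios over the alternatives reached 1.59 for Mir298 and ranged from 0.48 to 0.57 for Mir483, from -0.36 to -0.28 for Mir335 and from -0.48 to -0.39 for Mir296. Without either replicate the summed share ranged from 1.69 to 3.06% and the ratio of Mir298 to Mir296 from 2.87 to 11.3; with 2 libraries such values cannot move by more than 1 SD and say nothing about stability. The 4 detected genes stayed detected in each library. No paired analysis was possible because both libraries belong to 1 group. Genomic positions of the mature sequences were not run, since no genome was used here; transcripts were searched in their place. Depth limits Mir675: its 0 counts allow up to 3 counts, or 0.730 CPM in the deeper and 0.940 CPM in the shallower library.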
